A study of Mus musculus with 4 samples.

Results

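The 9 genes described here, Kit, Id2, Zbtb16, Fcer1g, Tyrobp, Blk, Trgv4, Tmem176a and Tmem176b, are markers of lymphocytes that act in an innate manner: innate lymphoid cells, gamma delta T cells and NKT cells. They were read with every probe set that the array's annotation gives to 1 of these genes alone, which made 18 probe sets of the 34945 that name 1 gene, and 9 genes of 18193. The genes were chosen by their intensity in CD25+ Foxp3- cells, where several of them had been seen to be high, so their height in that population is a description and no finding. The populations were CD25+ Foxp3-, CD25hi Foxp3+, CD25lo Foxp3+ and CD25- Foxp3- CD4+ T cells, each read on 1 Affymetrix GeneChip array of the mouse genome. The cells came from the spleen and lymph nodes of B6/129 F2 mice, 25 males, aged 5 to 8 weeks, that carry GFP knocked into Foxp3, the gene of the lineage factor of regulatory T cells. Every mouse carried the knock-in, so GFP stood for Foxp3 in the sort, and CD25 is a subunit of the high-affinity receptor for interleukin 2. Before the sort, cells bearing CD8, B220, CD11b, NK1.1 or DX5 were removed with antibodies, which takes away most CD8 T, B, myeloid and NK cells as well as NKT cells that bear NK1.1.

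Innate lymphoid cells carry no rearranged antigen receptor and depend on Id2, while NKT cells and some gamma delta T cells carry one but answer fast, as memory cells do. NKT cells, innate lymphoid precursors and some gamma delta T cells share the transcription factor PLZF, which Zbtb16 encodes. Several of these cells signal through small adaptor proteins of NK and myeloid cells, and conventional CD4+ T cells use the CD3 and zeta chains for this instead.

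Each population was 1 array, so no value below has a replicate or a test, and differences are given by size. Intensities are on the authors' linear scale. The 4 array medians lay between 15.03 and 15.6 and the highest intensities between 33664 and 40178. Values under an intensity of 10.1, called the floor, were set to it for folds, and a gene counted as measured if at least 1 array reached 32.5, called the filter. The precision is limited by the number of arrays. Foxp3, the sort gene, read 16.8 in CD25+ Foxp3- cells, 1308 and 1117 in CD25hi and CD25lo Foxp3+ cells and 17.6 in CD25- Foxp3- cells. Il2ra, which encodes CD25, read 283, 1562, 288 and 22.3 in the same order, so by this probe set CD25+ Foxp3- cells were close to CD25lo Foxp3+ cells.

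In CD25+ Foxp3- cells each of the 9 genes exceeded its reading in both Foxp3+ populations by 2-fold or more, and 8 exceeded that in CD25- Foxp3- cells by as much. The exception was Tyrobp. Of 9622 measured genes, 6.84% were at least 2-fold higher than in CD25hi Foxp3+, 9.04% than in CD25lo Foxp3+ and 12.1% than in CD25- Foxp3- cells. The same 8 genes lay at least 2-fold above all 3 other arrays, as did 3.26% of measured genes. None of the 9 lay at least 2-fold below all 3 others, as 0.52% of measured genes did, and none was at least 2-fold lower than in CD25- Foxp3- cells, as 6.43% were. Nothing is read from these counts, because the genes were chosen on that array. Of the 18 probe sets, 17 read highest in CD25+ Foxp3- cells, and 4 stayed below the filter in every array. All 9 genes passed the filter, but Kit, Fcer1g, Zbtb16 and Blk, 4 of the 9, passed it through the CD25+ Foxp3- array alone, and only Id2 and Tmem176b reached it in all 4 arrays. Just inside the 2-fold limit was Blk, with a gap of 2.31-fold to the nearest other array, and just outside was Tyrobp, with 1.15-fold. In RNA of whole populations, more cells of a type and more RNA per cell cannot be told apart.

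**Figure D1:**
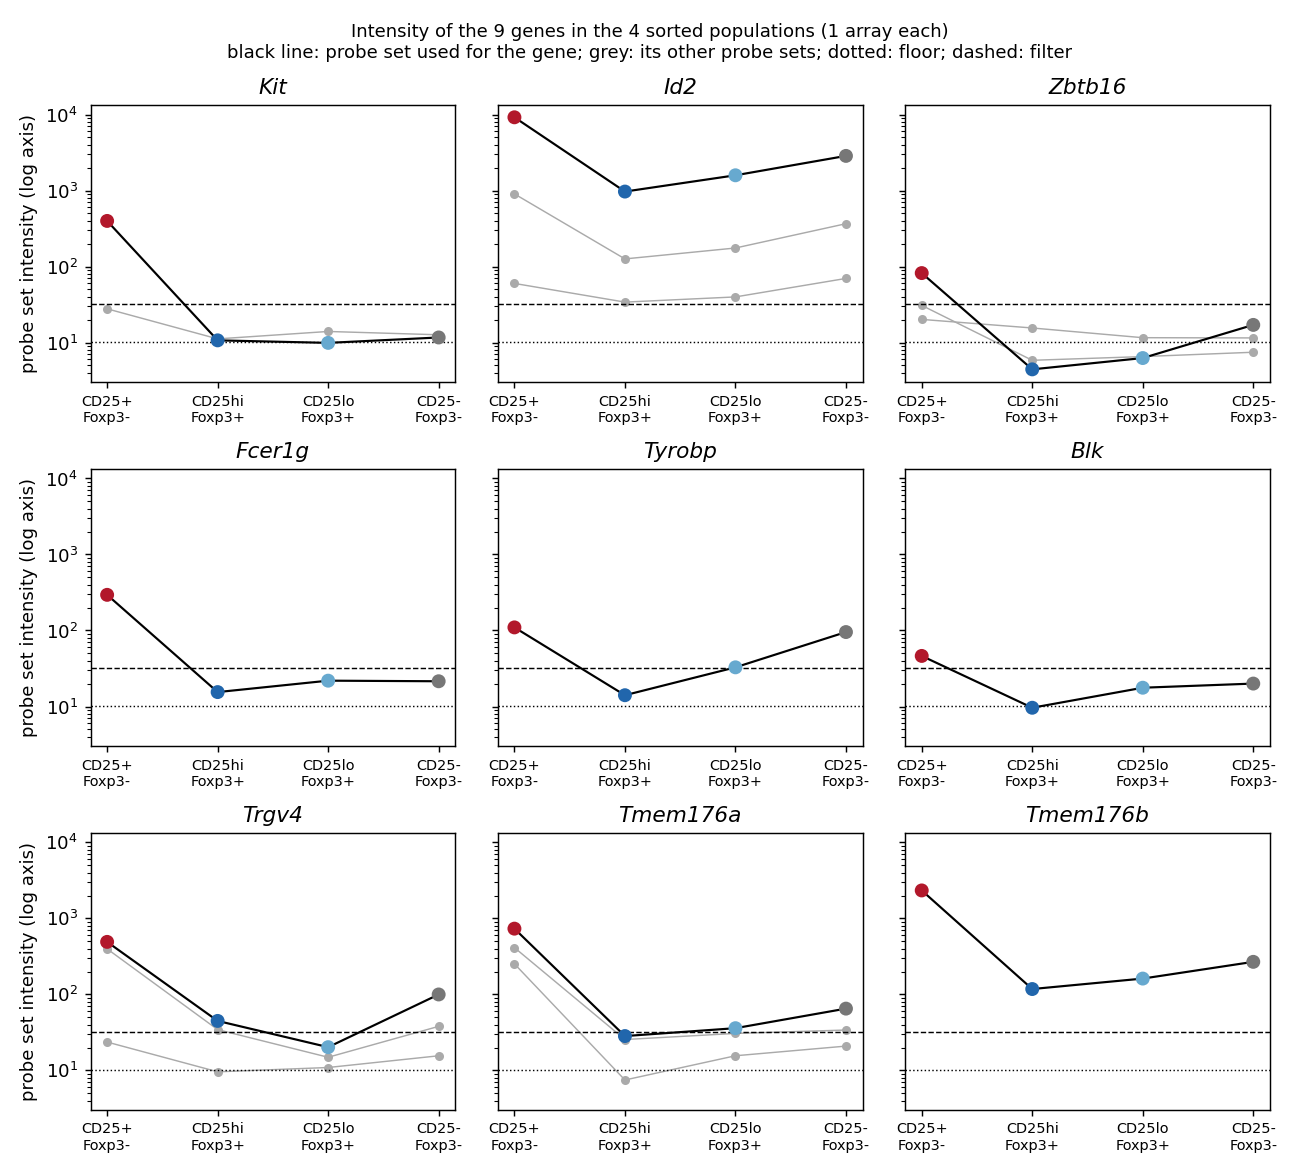
Probe set intensity on a log axis (vertical) in the 4 sorted populations (horizontal, 1 array each), with 1 panel per gene. Lines join the values of 1 probe set, black with coloured points for the probe set used and grey for the gene's others, the dotted line is the floor of 10.1 and the dashed line the filter of 32.5. In every panel the black line is highest in CD25+ Foxp3- cells, by 1.15-fold in Tyrobp and by 34.1-fold in Kit.

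Id2 and Zbtb16 are the transcription regulators among the 9. Id2 binds E proteins and keeps them from DNA, and innate lymphoid cells need it to form. It read 9203 in CD25+ Foxp3- cells, 970.4 in CD25hi Foxp3+ cells, 1589 in CD25lo Foxp3+ cells and 2858 in CD25- Foxp3- cells. It was highest in CD25+ Foxp3- cells by 3.22-fold, and neighbours in the order below that lay 1.80-fold and 1.64-fold apart. A second Id2 probe set, with 904, 126, 176 and 367, kept this order. The third and dimmest did not, at 60.03 in CD25+ Foxp3- against 69.8 in CD25- Foxp3- cells. Of the other 6 genes for Id and E proteins none of the 4 measured was 2-fold above all other arrays. Id3, which restrains E proteins as Id2 does, went the other way, with 199 in CD25+ Foxp3- cells against 565, 375 and 354 in CD25hi Foxp3+, CD25lo Foxp3+ and CD25- Foxp3- cells.

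Zbtb16 (PLZF), which gives NKT cells their innate character, was dim. It read 82.2 in CD25+ Foxp3- cells, 4.45 and 6.26 in CD25hi and CD25lo Foxp3+ cells and 17.1 in CD25- Foxp3- cells. Only the first lies above the filter, and both Foxp3+ arrays lie under the floor. The fold was 4.81 over CD25- Foxp3- cells and at least 8.12 over each Foxp3+ population. With the median over its probe sets the log2 difference was 1.42 from CD25- Foxp3- cells, in place of 2.26, and 1.61 from each Foxp3+ population, in place of 3.02. Its other probe sets stayed below the filter in every array, with at most 30.9, the member probe set closest under it, and 20.2, both in CD25+ Foxp3- cells. The last of these read 15.6 in CD25hi Foxp3+ cells, a gap of 1.30-fold. Among 11 other BTB zinc finger genes, 10 were measured and none was 2-fold above all other arrays. Zbtb7b (ThPOK), the factor of the CD4 lineage, read 127 in CD25+ Foxp3- cells against 194, 170 and 168 in CD25hi Foxp3+, CD25lo Foxp3+ and CD25- Foxp3- cells.

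Kit, the receptor for stem cell factor on mast cells, blood progenitors and some innate lymphoid cells, had the widest gap of the 9. It read 399 in CD25+ Foxp3- cells, 10.7 in CD25hi Foxp3+, 9.91 in CD25lo Foxp3+ and 11.7 in CD25- Foxp3- cells. The last 3 are at or near the floor and have no order among them. The fold was 34.1 over CD25- Foxp3- cells, 37.2 over CD25hi Foxp3+ and at least 39.4 over CD25lo Foxp3+ cells. Folds against readings this dim are uncertain in size, and against the filter intensity the CD25+ Foxp3- reading was 12.3-fold higher. A second Kit probe set was also highest there, at 27.8 against 11.2, 14.0 and 12.7, but below the filter. With the median of both probe sets the log2 difference from CD25- Foxp3- cells was 3.11, in place of 5.09. Of 19 genes listed as acting with Kit, 18 had a probe set, 14 were measured and none was 2-fold above all other arrays or 2-fold higher than in CD25- Foxp3- cells. Over all measured genes these shares were 3.26% and 12.1%, so a count of 0 among so few is not set apart from them. Its ligand gene Kitl read between 11.0 and 21.0 in the 4 arrays, below the filter. Cbl, a ubiquitin ligase that takes down active receptors, read 608 in CD25+ Foxp3- cells against 1535, 1857 and 1159 in CD25hi Foxp3+, CD25lo Foxp3+ and CD25- Foxp3- cells.

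Fcer1g and Tyrobp (DAP12) both encode small membrane adaptors with an activation motif that recruits the kinases Syk and Zap70. Fcer1g read 294 in CD25+ Foxp3- cells, 15.5 in CD25hi Foxp3+ cells, 21.9 in CD25lo Foxp3+ cells and 21.5 in CD25- Foxp3- cells. The first alone lies above the filter, and the others are dim and lie within 1.41-fold of each other. The fold was 19.0 over CD25hi Foxp3+, 13.5 over CD25lo Foxp3+ and 13.7 over CD25- Foxp3- cells. All 3 folds are against readings below the filter, and with 32 added to every value the log2 differences were 2.78, 2.60 and 2.61, in place of 4.25, 3.75 and 3.78. Tyrobp read 110 in CD25+ Foxp3- cells, 14.1 in CD25hi Foxp3+, 32.8 in CD25lo Foxp3+ and 95.4 in CD25- Foxp3- cells. The adaptors thus parted in CD25- Foxp3- cells, where Tyrobp was high and Fcer1g was not. Tyrobp differed by 7.80-fold from CD25hi Foxp3+ and by 3.35-fold from CD25lo Foxp3+ cells, and by 1.15-fold from CD25- Foxp3- cells.

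The receptors that need these adaptors were mostly dim. Of 22 listed, 18 had a probe set and 15 of those stayed below the filter in every array, Fcer1a, Trem1, Trem2 and Clec5a among them. Ncr1 (NKp46), a receptor of NK cells and some innate lymphoid cells, read 36.2 in CD25+ Foxp3- cells, little above the filter, against 7.97, 9.70 and 10.7 in CD25hi Foxp3+, CD25lo Foxp3+ and CD25- Foxp3- cells. Klrk1 (NKG2D) read 33.0 in CD25+ Foxp3- cells against 5.29, 8.14 and 24.8 in the others. Fcgr3, the Fc receptor CD16, lay between 38.9 and 57.0 in the 4 arrays. The adaptors of the T cell receptor ran the other way from Fcer1g without reaching 2-fold below all others. Cd3e read 497 in CD25+ Foxp3- cells against 837, 806 and 808 in CD25hi Foxp3+, CD25lo Foxp3+ and CD25- Foxp3- cells, and Cd3d read 6179 against 9007, 9946 and 9886. Among 7 measured kinases and adaptors downstream, 1 was 2-fold above all others, beside 3.26% of all measured genes. This was Plcg2, the phospholipase C of B, NK and myeloid cells, with 136 in CD25+ Foxp3- cells against 13.5, 20.3 and 37.4. Syk read 47.9 in CD25+ Foxp3- cells against 21.7, 24.5 and 49.9, and was about as high in CD25- Foxp3- cells.

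Blk, a Src family kinase of B cells that some gamma delta T cells also use, was close to the filter. It read 46.3 in CD25+ Foxp3- cells, 9.63 in CD25hi Foxp3+, 17.7 in CD25lo Foxp3+ and 20.03 in CD25- Foxp3- cells. The first lies just above the filter, the nearest of any member gene, and the CD25hi Foxp3+ value is under the floor. The fold was 2.31 over CD25- Foxp3- cells, 2.62 over CD25lo Foxp3+ and at least 4.58 over CD25hi Foxp3+ cells. With 32 added to every value in place of the floor, the log2 difference from CD25- Foxp3- cells was 0.59 and Blk was no longer 2-fold higher than in any other array. Of 8 other genes for Src family kinases and their regulator Csk, 5 had a probe set of 1 gene alone and 4 were measured. None of the 4 was 2-fold above all others, as 3.26% of all measured genes were. Fyn, a kinase of T cell receptor signalling, read 4955 in CD25+ Foxp3- cells against 5648, 5748 and 6284 in CD25hi Foxp3+, CD25lo Foxp3+ and CD25- Foxp3- cells.

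Trgv4 is a variable segment of the T cell receptor gamma chain. It read 491 in CD25+ Foxp3- cells, 44.8 in CD25hi Foxp3+, 20.2 in CD25lo Foxp3+ and 99.8 in CD25- Foxp3- cells. Every population but CD25lo Foxp3+ reached the filter, and neighbours in the order lay at least 2.21-fold apart. The folds were 11.0 over CD25hi Foxp3+, 24.3 over CD25lo Foxp3+ and 4.92 over CD25- Foxp3- cells. A second probe set read 397 in CD25+ Foxp3- cells against 34.4, 14.9 and 38.0, a fold of 10.5 over CD25- Foxp3- cells, and another stayed below the filter with at most 23.6. Gamma segments are alike in sequence, so what each probe set detects is uncertain. A probe set given to Trgv4 and Trgv2 together, which the rule left out, read 1434 in CD25+ Foxp3- cells against 95.0, 43.9 and 204.

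Tmem176a and Tmem176b encode related membrane proteins that dendritic cells and lymphocytes with the factor ROR gamma t express. Tmem176a read 733 in CD25+ Foxp3- cells, 28.3 in CD25hi Foxp3+, 36.0 in CD25lo Foxp3+ and 65.0 in CD25- Foxp3- cells. Tmem176b read 2332 in CD25+ Foxp3- cells, 118 in CD25hi Foxp3+, 162 in CD25lo Foxp3+ and 268 in CD25- Foxp3- cells. Both had the same order of populations, with the CD25+ Foxp3- array far above the rest. Tmem176a was 25.9-fold, 20.4-fold and 11.3-fold higher than in CD25hi Foxp3+, CD25lo Foxp3+ and CD25- Foxp3- cells. For Tmem176b these folds were 19.8, 14.4 and 8.70. The other Tmem176a probe sets gave 12.1-fold over CD25- Foxp3- cells each. Of 10 genes of the related MS4A group, 7 were measured and 1 was 2-fold above all others, beside 3.26% of all measured genes. This was Ms4a4c, with 1143 in CD25+ Foxp3- cells against 303, 222 and 455.

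Of all pairs among the 9, Tmem176a and Tmem176b had the most similar profile. Once each profile was centred on its own mean, the root mean square difference of their log2 values over the 4 arrays was 0.188, and next came Fcer1g and Tmem176b with 0.309. The genes lie head to head. In the RefSeq promoter table of build GRCm38.p6 the start that stands first for each gene is 346 bases from the other, on opposite strands of chromosome 6, and windows of 250 bases before to 50 after these starts share 155 bases. The table lists further starts, and over all pairs the distance runs from 109 to 668 bases and the shared stretch from none to 219 bases. The windows of these neighbours are printed because the genes' profiles were the most alike, 5′ to 3′ on the strand of each gene, with the shared bases in capitals. The Tmem176a window is chr6:48841233-48841532 on the plus strand and the Tmem176b window is chr6:48841088-48841387 on the minus strand.
Tmem176a: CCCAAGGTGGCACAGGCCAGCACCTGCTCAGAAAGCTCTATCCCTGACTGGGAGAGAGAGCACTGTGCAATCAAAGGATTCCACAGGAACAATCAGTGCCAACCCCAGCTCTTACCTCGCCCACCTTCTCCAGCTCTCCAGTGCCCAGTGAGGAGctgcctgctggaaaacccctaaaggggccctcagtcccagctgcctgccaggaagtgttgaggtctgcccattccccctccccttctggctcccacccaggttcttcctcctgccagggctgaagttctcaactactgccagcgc
Tmem176b: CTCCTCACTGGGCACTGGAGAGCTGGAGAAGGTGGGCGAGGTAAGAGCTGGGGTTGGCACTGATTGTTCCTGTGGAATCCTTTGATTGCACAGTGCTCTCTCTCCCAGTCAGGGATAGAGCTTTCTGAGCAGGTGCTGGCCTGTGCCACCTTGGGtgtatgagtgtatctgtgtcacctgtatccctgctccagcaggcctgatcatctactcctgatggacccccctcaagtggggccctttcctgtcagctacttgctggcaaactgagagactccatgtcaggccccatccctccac
The E-box motif CANNTG, to which E proteins bind, was searched on both strands and matched 2 places in the Tmem176a window and 3 in the Tmem176b window, with 1 in the shared bases. Of the 32851 windows in the table, 72.3% hold it. AGGTCA, the core that ROR factors bind, and TATAAA were found in neither window, and 16.3% and 13.6% of all windows hold them. A match of letters is a description and no binding site. Among the 9 genes, 5 had windows in this table, namely Kit, Id2, Fcer1g, Tmem176a and Tmem176b.

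**Figure D2:**
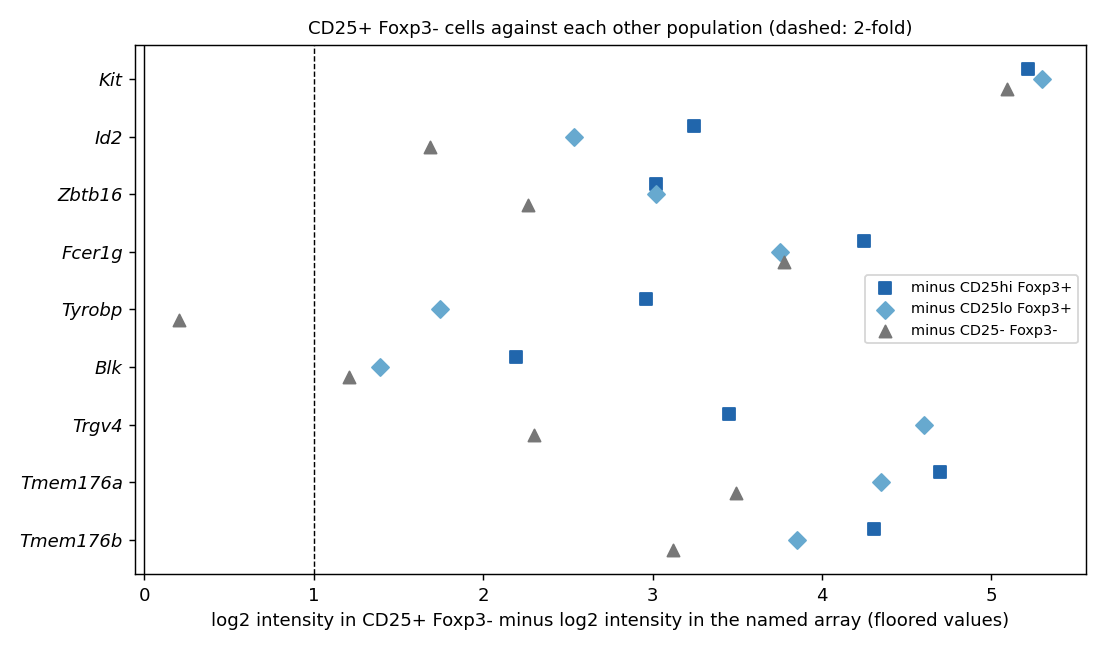
Log2 intensity in CD25+ Foxp3- cells minus that in each other population (horizontal, floored values) for the 9 genes (vertical), with squares for CD25hi Foxp3+, diamonds for CD25lo Foxp3+ and triangles for CD25- Foxp3- cells. Every point lies right of 0, and the Tyrobp triangle, at 0.20, is the one point left of the dashed line at 2-fold.

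The other 3 populations were also compared among themselves. The CD25+ Foxp3- array, on which the genes were chosen, still entered the filter and the choice of each gene's probe set. Kit, Fcer1g, Zbtb16 and Blk count as measured through that array alone. The counts that follow are therefore a description, and nothing is read from them. Relative to CD25- Foxp3- cells, 5 of the 9 genes lay 2-fold or more lower in the CD25hi Foxp3+ array, against 3.74% of measured genes, and 2 were at least 2-fold lower in CD25lo Foxp3+ cells, against 6.88%. The 5 were Tyrobp with 6.78-fold, Id2 with 2.95-fold, Tmem176a with 2.30-fold, Tmem176b with 2.28-fold and Trgv4 with 2.23-fold. In CD25lo Foxp3+ cells Trgv4 was 4.93-fold and Tyrobp 2.91-fold lower. These comparisons share the CD25- Foxp3- array. Some other probe sets gave smaller differences. The second Trgv4 probe set was 1.10-fold lower in CD25hi Foxp3+ and 2.55-fold lower in CD25lo Foxp3+ cells, and a further Tmem176a probe set was 1.33-fold lower in CD25hi Foxp3+ cells. With the median over a gene's probe sets 3 genes were 2-fold lower in CD25hi Foxp3+ cells, Id2, Tyrobp and Tmem176b. Kit differed by 1.15-fold or less among the 3 populations, all near the floor. A further count used the CD25+ Foxp3- values themselves. By the rule that the lower of both Foxp3- arrays must exceed the higher of both Foxp3+ arrays by 1.5-fold, 6 of the 9 genes were higher without Foxp3, and 1.93% of measured genes were. Nothing is read from this count either, since the choice of genes had fixed the CD25+ Foxp3- side of it. The 6 were Id2, Tyrobp, Zbtb16, Tmem176a, Tmem176b and Trgv4, and for Zbtb16 the CD25- Foxp3- reading of 17.1 lies under the filter. With the median over a gene's probe sets 3 passed, and at a gap of 2-fold Tyrobp and Trgv4 alone passed.

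The other markers of the same cell types are described without the 9 genes. These lists too were chosen with earlier results of these data known, so nothing is read from their counts. Of 26 other innate lymphoid markers 21 had a probe set, 17 were measured and 5 lay at least 2-fold above all 3 other arrays. These were Cxcr6, Il1r1, Il17rb, Ncr1 and Il18r1, beside 3.26% of all measured genes, and Ncr1 reached the filter in that array alone. Cxcr6, a chemokine receptor of tissue-seeking lymphocytes, read 2148 in CD25+ Foxp3- cells against 73.5, 128 and 249 in CD25hi Foxp3+, CD25lo Foxp3+ and CD25- Foxp3- cells. Il1r1, the receptor for IL-1, read 334 in CD25+ Foxp3- cells against 42.1, 40.1 and 36.2. Il17rb, a receptor chain for IL-25, read 263 in CD25+ Foxp3- cells against 55.3, 57.3 and 76.1. The median log2 difference from CD25- Foxp3- cells was 1.504 over the 17 measured and 1.09 over the 21, beside -0.01 over all measured genes. From CD25hi and CD25lo Foxp3+ cells it was 0.38 and 0.49 over the 17, and 0.02 and 0 over the 21. The median of this list was thus raised mainly against CD25- Foxp3- cells, while the 5 genes named first were 2-fold above both Foxp3+ arrays too. Arg1, Hpgds, Il5 and Ptgdr2, which mark group 2 innate lymphoid cells, were under the floor in all 4 arrays. Gata3 and Il7r were not highest in CD25+ Foxp3- cells, at 566 and 5075, against 966 for Gata3 in CD25lo Foxp3+ and 6659 for Il7r in CD25- Foxp3- cells. Nfil3, Tox, Ahr and Icos were higher in both Foxp3+ arrays than in CD25+ Foxp3- cells, and Rora was higher in CD25lo Foxp3+ cells, at 1278 against 589. Nfil3 read 96.0 in CD25+ Foxp3- cells against 218 and 419 in CD25hi and CD25lo Foxp3+ cells. Each of these genes from Nfil3 to Rora read lowest in CD25- Foxp3- cells.

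Of 25 other gamma delta T cell markers 9 had a probe set, 8 were measured and 3 lay at least 2-fold above all others. These were Il1r1, Il17a and Sox4, beside 3.26% of all measured genes. Il17a, the cytokine that some gamma delta T cells make, read 49.6 in CD25+ Foxp3- cells against 6.30, 7.88 and 11.7, and was measured through that array alone. Sox4, a transcription factor of their development, read 460 in CD25+ Foxp3- cells against 148, 127 and 167. Sox13, which marks a gamma delta subset, was under the floor in all 4 arrays. Maf was highest in CD25lo Foxp3+ cells, at 6040 against 3904 in CD25+ Foxp3- cells. Etv5 read 31.8 in CD25+ Foxp3- cells against 55.3 and 62.7 in CD25hi and CD25lo Foxp3+ cells. Cpa3 was at least 2-fold lower in CD25+ Foxp3- than in CD25- Foxp3- cells, at 15.8 against 56.0. The median log2 difference from CD25- Foxp3- cells was 1.77 over the 8 measured and 1.46 over the 9.

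Of 22 other NKT cell markers 18 had a probe set, 17 were measured and 7 lay at least 2-fold above all others. These were Klrb1b, Cxcr6, Cd160, Tbx21, Ifng, Xcl1 and Il4, beside 3.26% of all measured genes, and Klrb1b and Xcl1 reached the filter in that array alone. Klrb1b, a lectin-like NK receptor, read 188 in CD25+ Foxp3- cells and was under the floor in the other 3 arrays, a fold of at least 18.5. Cd160, a receptor of NK, NKT and cytotoxic T cells, read 464 in CD25+ Foxp3- cells against 95.0, 101 and 125. Tbx21 (T-bet), the factor behind interferon gamma, read 227 in CD25+ Foxp3- cells against 20.5, 67.6 and 20.2. Klrd1 and Gzma, of cytotoxic lymphocytes, were at least 2-fold lower than in CD25- Foxp3- cells. Klrd1 read 192 in CD25+ Foxp3- cells against 31.7, 40.2 and 422 in CD25hi Foxp3+, CD25lo Foxp3+ and CD25- Foxp3- cells, and Gzma read 169 against 60.4, 97.6 and 348. Il2rb, Slamf1 and Sh2d1a were higher in both Foxp3+ arrays than in CD25+ Foxp3- cells, Il2rb with 257 in CD25+ Foxp3- cells against 1053 and 459 in CD25hi and CD25lo Foxp3+ cells. Activated CD4+ T cells also use Ifng, Il4, Tbx21 and Cxcr6. The median log2 difference from CD25- Foxp3- cells was 1.01 over the 17 measured and 0.98 over the 18. From CD25hi and CD25lo Foxp3+ cells it was 2.02 and 1.71 over the 17, and 1.87 and 1.68 over the 18. The lists share genes, Il1r1 and Cxcr6 among them.

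**Figure D3:**
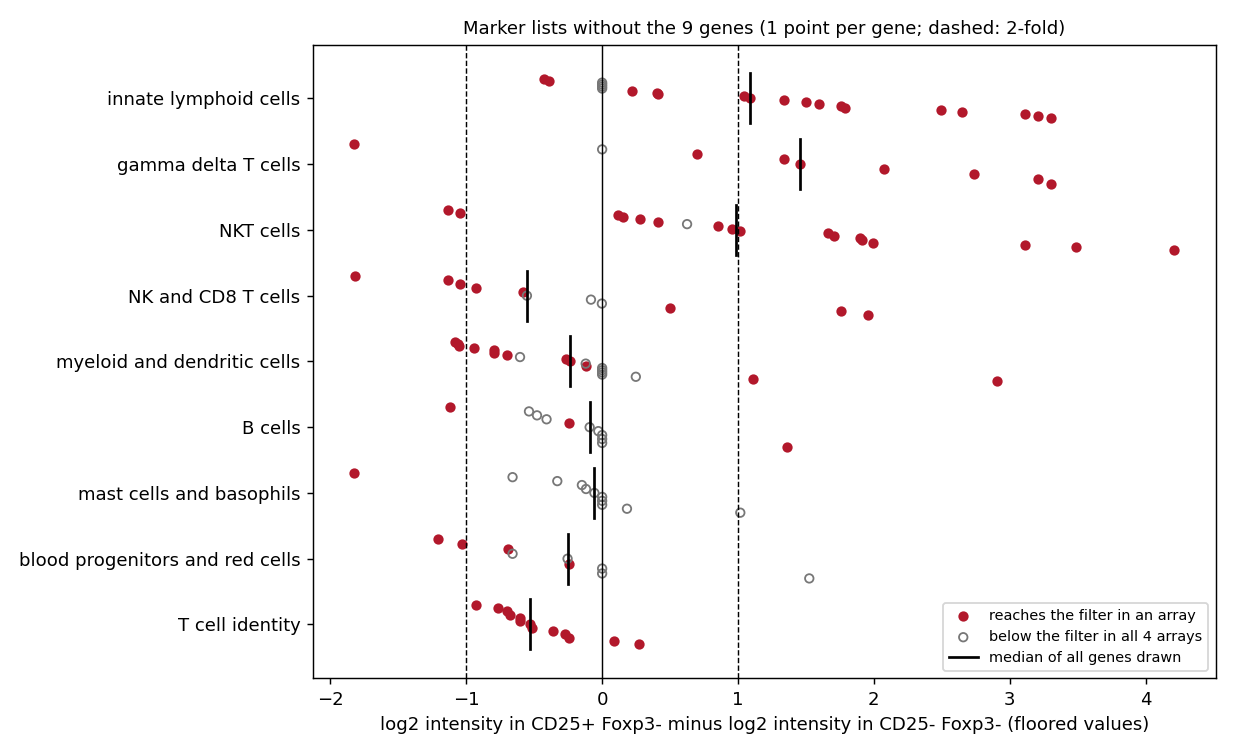
Log2 intensity in CD25+ Foxp3- minus CD25- Foxp3- cells (horizontal, floored values) for each gene of 9 marker lists (vertical) without the 9 genes described. Filled points reach the filter in at least 1 array, open points do not, and bars are medians over all points of a list. The medians of the first 3 lists lie between 0.98 and 1.46, and those of the other 6 between -0.55 and -0.06. This order depends on the array compared with. Against CD25hi Foxp3+ cells, not drawn, the medians of the first 3 were 0.02, 1.01 and 1.87, and that of NK and CD8 T cells was 0.96.

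Markers of other cell types were read beside them, and their part in the values above was not tested. The T cell identity list had 13 measured genes, all at the filter in every array and none at least 2-fold higher than any other array or 2-fold lower than in CD25- Foxp3- cells. Cd2, an adhesion receptor of T cells, was lower than in both Foxp3+ populations, at 3604 in CD25+ Foxp3- cells against 10149 and 10028 in CD25hi and CD25lo Foxp3+ cells. Their median log2 difference was -0.53 from CD25- Foxp3- cells, and their summed intensity was 42911 in CD25+ Foxp3- cells against 56638, 59617 and 61445 in CD25hi Foxp3+, CD25lo Foxp3+ and CD25- Foxp3- cells. Cd4 read 2434 in CD25+ Foxp3- cells, against 2948 in CD25- Foxp3- cells. Of 11 mast cell and basophil markers with a probe set, 10 stayed below the filter in every array, Fcer1a, Cma1, Mcpt4 and Tpsab1 among them, and Cpa3, the 1 measured, was lower in CD25+ Foxp3- than in CD25- Foxp3- cells, at 15.8 against 56.0. Of 11 other B cell markers with a probe set 8 stayed below the filter, Cd79a and Pax5 among them. The 11 summed to 284 in CD25+ Foxp3- cells against 199, 250 and 344. Of the 3 measured, Cd22 alone was 2-fold above all others, as Blk was, beside 3.26% of all measured genes. Cd22 read 81.4 in CD25+ Foxp3- cells against 14.0, 40.3 and 31.6.

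Of 19 myeloid markers with a probe set 12 were measured, and 2 lay 2-fold above all others, beside 3.26% of all measured genes. These were Batf3 with 75.9 in CD25+ Foxp3- cells against at most 13.1 and Adgre1 with 45.4 against at most 22.3. Both reached the filter in the CD25+ Foxp3- array alone. Lyz2 and Csf1r were highest in CD25- Foxp3- cells, at 147 and 305, against 70.6 and 147 in CD25+ Foxp3- cells, and Itgam and Cd14 were under the floor in all arrays. The summed myeloid intensity was 6672 in CD25+ Foxp3- cells against 8635, 8771 and 8217. Most of each sum was Ctss and Cst3, bright in every array, with Ctss at 5008 against 7294, 6864 and 5889. Of the 12 measured genes, 6 were at least 2-fold higher than in CD25hi Foxp3+ cells, as 6.84% of all measured genes were. Another count, 3 of the 12, were at least 2-fold lower than in CD25- Foxp3- cells, as 6.43% were. Of 11 NK and CD8 T cell markers with a probe set 8 were measured. The summed intensity of the 11 was 2163 in CD25+ Foxp3- cells against 687, 681 and 2446, so it was high in both Foxp3- populations, as Tyrobp was. Eomes and Ncr1, 2 of the 8, were 2-fold above all others, beside 3.26% of all measured genes. Eomes read 411 in CD25+ Foxp3- cells against 50.01, 35.8 and 106, and Ncr1 reached the filter in the CD25+ Foxp3- array alone. Klrd1, Gzma and Prf1 (perforin) were at least 2-fold lower than in CD25- Foxp3- cells, Prf1 with 49.96 in CD25+ Foxp3- against 176 in CD25- Foxp3- cells. Klra7, Klra8 and Klre1, receptors of NK cells, were below the filter in all arrays. The red cell and progenitor sum was 472 in CD25+ Foxp3- cells against 472, 205 and 744, and Cd34 was under the floor in all arrays. Most of the CD25hi Foxp3+ sum was Gata1, at 372. Car1, Klf1 and Alas2 were higher in CD25+ Foxp3- cells than in both Foxp3+ arrays and highest in CD25- Foxp3- cells. Car1 read 257 in CD25+ Foxp3- cells against 27.1, 94.9 and 416.

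The genes most like each member were found by the root mean square difference of centred log2 values over the 4 arrays, among 9290 genes. Readings under the floor were set to it first, which makes genes alike where they are that dim. With 4 arrays many genes lie close, and nothing about shared function follows. Kit was nearest to the potassium channel Kcnk1 (0.05) and to Pxdc1 (0.25). Kcnk1 was under the floor in both Foxp3+ arrays, and Pxdc1 in every array but CD25+ Foxp3-. Id2 was nearest to Plcg2 (0.08) and Ctla2b (0.09), Zbtb16 to Atp8a2 (0.11) and the short-chain fatty acid receptor Ffar2 (0.13), and Blk to Alg6 (0.10) and Sema7a (0.11). Fcer1g was nearest to the chemokine Ccl1 (0.15) and Stfa3 (0.18). Tyrobp was nearest to the MHC class II genes H2-Ab1 (0.20) and H2-Eb1 (0.22). H2-Ab1 read 548 in CD25+ Foxp3- cells against 48.3, 129 and 352 in CD25hi Foxp3+, CD25lo Foxp3+ and CD25- Foxp3- cells. Trgv4 was nearest to another gamma segment, Trgv1 (0.25), which read 825 in CD25+ Foxp3- cells against 62.3, 27.6 and 210, and then to Lmo4 (0.30). Tmem176a was nearest to Mapk10 (0.21) and Cxcr6 (0.22), and Tmem176b to Tns3 (0.23) and Cxcr6 (0.23).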

How the data were processed

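The authors deposited a linear intensity for each probe set and array. The summarisation and normalization method is not stated in the labels or the file. Array medians lie within 10% of each other, so no rescaling was done. Of the probe sets, 34945 had 1 gene in the platform's annotation, 932 had several and 9160 were not listed with a gene, and 64 were controls. By Entrez identifier 34741 matched RefSeq (GRCm38.p6), which changed no symbol. The floor was the 40th percentile of all values and the filter the 60th, and a gene was read from its measured probe set with the highest mean log2 intensity. Genes were named by a rule: all 9, both sort genes, up to 6 measured genes of each list with the widest gap between the CD25+ Foxp3- array and the nearest other, defining markers under the floor in all 4 arrays, and the 2 nearest profiles of each of the 9. Ahr, Cd4, Cd79a, Etv5, Fcer1a, Gata3, Hdc, Icos, Ifng, Il18r1, Il2rb, Il4, Il7r, Kitl, Klra7, Klra8, Klrd1, Klre1, Lyz2, Maf, Meis1, Nfil3, Prf1, Rora, Sh2d1a, Slamf1, Syk, Tox, Trem1, Trem2, Xcl1 and Zbtb46 fall outside it and were chosen after their values were seen. The 9 genes and all 17 other lists were chosen with earlier results of these data known. Counting was tested on simulated data. Python 3.11.15, numpy and pandas were used.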

Additional observations from a re-analysis of the deposited data

How the results depend on the processing

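The counts of genes at least 2-fold higher in CD25+ Foxp3- cells than in each other array, and than in all 3, ranged from 6 to 9 of those measured under each of the alternatives run. The lowest came with the filter at the 75th percentile, where 6 of the 9 genes are measured. The count of genes higher in both Foxp3- than in both Foxp3+ arrays, 6 as reported, was 3 with the median over all probe sets, 2 at a gap of 2-fold and 0 at a gap of 3-fold. The counts of genes at least 2-fold lower than in CD25- Foxp3- cells were recomputed by alternatives chosen after seeing the data. In CD25hi Foxp3+ cells the count, 5 as reported, was 3 with the median over probe sets, 3 with 32 added and 1 at 3-fold. It was 4 with the filter at the 75th percentile and 7 at 1.5-fold. With no floor, or with the floor at the 20th percentile, it was 7, as Zbtb16 and Blk then passed. In CD25lo Foxp3+ cells the count, 2 as reported, was 1 with the filter at the 75th percentile, 1 with 32 added, 6 at 1.5-fold and 1 at 3-fold. There it was 3 with no floor, with the floor at the 20th percentile or with the median over probe sets. Over all measured genes, the share higher than in CD25- Foxp3- cells, 12.1% as reported, was 22.3% at 1.5-fold and 5.24% at 3-fold. Of 180 recomputed log2 differences of single genes none changed sign and 30 moved by more than 0.604. That limit was taken from the middle spread of a contrast of the 4 arrays over all measured genes. It is no bound on the SD of a single gene, least of all a dim one. Of the 30 that moved, 18 came from adding 32 to every value in place of the floor, which shrinks folds of dim genes. A further 8 came from the median over probe sets. The median lowered the Kit differences to between 3.11 and 3.27 and the Zbtb16 differences to between 1.42 and 1.61. With no replicates, the spread between animals or between arrays of 1 population is unknown, and what depth limits here is signal near background: Zbtb16, Blk and the low side of Kit and Fcer1g rest on readings under or near the filter.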

Other observations

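Some listed genes below the filter read highest in CD25+ Foxp3- cells as well, and were chosen after their values were seen. Meis1, a transcription factor of blood progenitors, read 29.1 in CD25+ Foxp3- cells and was under the floor in the other 3 arrays. Hdc, which makes histamine, read 28.8 in CD25+ Foxp3- cells against 13.9, 13.2 and 14.2 in CD25hi Foxp3+, CD25lo Foxp3+ and CD25- Foxp3- cells. Zbtb46, a factor of dendritic cells, read 23.2 in CD25+ Foxp3- cells against 12.0, 11.2 and 13.4. None of the 3 reached the filter intensity of 32.5 in any array. Gata1, a red cell and mast cell factor on the progenitor list, was instead highest in CD25hi Foxp3+ cells, at 372 against 55.0 in CD25+ Foxp3- cells.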
